A study of Mus musculus with 14 samples.

Results

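The immediate-early genes Fos, Fosb, Jun, Junb, Egr1, Atf3, Ier2, Ier3, Nr4a1 and Dusp1 were followed through the transcriptome of primary mammary epithelial cells (MECs). They were taken by gene symbol, and all 10 were present once among the 16124 genes of the deposited table. The study sequenced MECs from 7 wild-type (WT) and 7 Usp22 OE/OE females, nulliparous and 3.5 months old, with 1 library per mouse and the mice matched as littermates in pairs numbered 1, 3, 4, 5, 6, 7 and 8. OE/OE mice were homozygous for a FLAG- and MYC-tagged mouse Usp22 cDNA knocked into Rosa26 behind the CAGGS promoter, and the floxed stop cassette had been removed with Zp3-Cre, so that overexpression was ubiquitous and not restricted to epithelium. All glands, WT and OE/OE alike, were minced, digested with collagenase A and hyaluronidase at body temperature, spun into organoids and broken up with trypsin before RNA was taken. There was no undissociated sample among those analysed here, so the part of each level that arose during digestion could not be measured. Whether WT littermates carried Zp3-Cre is not given in the sources used here. Neither are the days on which the glands were digested, so litter and day of dissociation cannot be told apart.

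Immediate-early genes are transcribed within minutes of a stimulus, with no need for newly made protein, because the factors that switch them on are already in the cell and need only be phosphorylated. Growth factors, calcium, stretch and stress reach them through the ERK, JNK and p38 kinases, which act on SRF with its ternary complex factors and on CREB. Most of the products are themselves transcription factors: FOS and JUN proteins pair to form AP-1, ATF3 is a stress-induced relative that binds AP-1 and CRE-like sites, EGR1 is a zinc finger factor and NR4A1 an orphan nuclear receptor. Others close the loop, such as DUSP1, a phosphatase that takes the phosphate off p38, JNK and ERK. Their mRNAs are short-lived, and they are widely used as marks of the response of cells to enzymatic dissociation.

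Between 20125106 and 41835978 fragments were counted on genes in each library (WT median 37546978, OE/OE median 38130881). Usp22 itself had 3500 to 5380 normalized counts in WT and 74948 to 144288 in OE/OE, so each library matched its genotype. Markers of luminal epithelium (13 of 13 in the table, summed to 420748 to 611294 normalized counts in WT and 437129 to 602961 in OE/OE) and of basal epithelium (10 of 10, 150916 to 237778 in WT and 140761 to 251241 in OE/OE) were abundant in every library. Fibroblast (10 of 10, 93856 to 198281 in WT and 60566 to 148975 in OE/OE), endothelial, macrophage (10 of 10, 6657 to 10238 in WT and 5057 to 14694 in OE/OE) and adipocyte markers were present too. Of the lymphocyte markers 9 of 11 were in the table, and they summed to 214 to 1924 in WT and 224 to 687 in OE/OE. No marker in the table was at 0 in any library. The OE/OE library of pair 4 stood apart in several of the measures given below, and results that rest on it are also given without it. The samples are bulk RNA, in which fewer cells of a type and less RNA per cell cannot be told apart.

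Several immediate-early promoters are known to be reached by CREB, whose element has the core TGACG. RefSeq promoter windows (GRCm38.p6, 250 bases before to 50 bases after the start) matched 8 of the 10 genes, all but Egr1 and Ier2, and 4 are shown over the 150 bases before the start, because these stretches overlap no annotated exon and show members with and without that core. The stretch of Nr4a1 lies within the annotated gene, in an intron before an internal start. Each reads 5′ to 3′ on the gene's own strand, and the capitals mark TGACG (or CGTCA, the same letters on the other strand) and the TATA box TATAAA.
Fos, chr12:85473740-85473889, forward strand: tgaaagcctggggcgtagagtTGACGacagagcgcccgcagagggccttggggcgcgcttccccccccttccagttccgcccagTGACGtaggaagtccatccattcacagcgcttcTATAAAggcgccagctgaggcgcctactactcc
Jun, chr4:95052223-95052372, reverse strand: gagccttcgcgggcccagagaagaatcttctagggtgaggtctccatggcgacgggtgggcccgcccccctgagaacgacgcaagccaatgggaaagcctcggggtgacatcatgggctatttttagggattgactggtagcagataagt
Junb, chr8:84978749-84978898, reverse strand: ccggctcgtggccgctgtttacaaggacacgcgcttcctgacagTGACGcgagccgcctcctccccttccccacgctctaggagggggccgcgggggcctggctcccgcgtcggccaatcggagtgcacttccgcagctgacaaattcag
Nr4a1, chr15:101266696-101266845, forward strand: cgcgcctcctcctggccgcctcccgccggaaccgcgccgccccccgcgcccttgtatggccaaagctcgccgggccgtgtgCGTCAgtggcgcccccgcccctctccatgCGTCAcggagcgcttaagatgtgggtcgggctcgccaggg
In the Fos promoter TGACG occurred 2 times upstream of a TATA box, Junb had it 1 time, Nr4a1 had it on the opposite strand, and the stretch of Jun held neither motif. Over the full windows, TGACG on either strand was found in 6 of the 8 genes (Fos, Fosb, Junb, Atf3, Nr4a1 and Dusp1) and in 20.8% of 32851 promoters. The full palindrome TGACGTCA, which contains TGACG, was in 1 of the 8 (Dusp1) and in 1.79% of promoters. TATAAA, searched on the gene's strand only, was in Fos and Junb and in 8.32% of promoters, and the EGR motif GCGNGGGCG, on either strand, was in Fosb and Nr4a1 and in 5.55%. The CArG box and the AP-1 motif TGANTCA were in none of the 8 windows and in 1.63% and 7.81% of promoters. Sites more than 250 bases before the start, and any site of Egr1 or Ier2, were not searched. These matches describe letters, not bound sites.

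Together the 10 genes held a median of 1.18% of all counted fragments. The share was 0.766% to 1.27% in WT (median 1.14%) and 0.477% to 1.72% in OE/OE (median 1.23%). The OE/OE range thus enclosed the WT range, with its lowest value in pair 4 and its highest in pair 1. The smallest count behind any value was 3998 fragments (Ier2), and counting error was between 0.62% and 1.58% of the level at each gene's smallest count, far below the spread between mice.

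Fos (ENSMUSG00000021250, chr12:85473890-85477273 in GRCm38, forward strand) is the founding AP-1 partner, a leucine zipper protein that binds DNA only as a dimer with a JUN protein. It had a lowest, median and highest level of 28039, 46521 and 64967 normalized counts over the 7 WT mice, and of 20316, 55598 and 83207 over the 7 OE/OE mice. The OE/OE mice of pairs 1, 3 and 6 were above the highest WT mouse, with 83207, 65234 and 70261 normalized counts, and the OE/OE mouse of pair 4 was below every other mouse. Fosb (ENSMUSG00000003545, chr7:19302696-19310051, reverse strand), a FOS family member whose truncated splice form lasts longer than FOS, had the most normalized counts of the 10 genes. Its levels were 53511, 97104 and 128478 in WT and 20893, 134076 and 171084 in OE/OE. In OE/OE 4 of the 7 mice (pairs 1, 5, 6 and 7) were above the highest WT mouse and 1, of pair 4, was below the lowest.

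Jun (ENSMUSG00000052684, chr4:95049034-95052222, reverse strand) encodes the AP-1 subunit that JNK phosphorylates. Its levels were 28139, 37234 and 50251 normalized counts in WT and 19294, 41853 and 67217 in OE/OE. Here the OE/OE mice of pairs 1 and 3 were above all WT mice, and those of pairs 4 and 8 below them. Junb (ENSMUSG00000052837, chr8:84974484-84978718, reverse strand), a JUN relative that can restrain the activity of JUN, had 25569, 37242 and 48507 in WT and 26010, 33451 and 64116 in OE/OE. Its lowest mouse of all was the WT mouse of pair 5. Exons of Jun share 232 bases with the antisense gene Junos and exons of Junb share 173 bases with Prdx2, and the strand setting of the counting is not given in the sources used here, so reads in these stretches cannot be assigned with certainty.

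Atf3 (ENSMUSG00000026628, chr1:191170296-191218039, reverse strand) had 20234, 40536 and 61662 normalized counts in WT and 12038, 46873 and 70713 in OE/OE. Its OE/OE levels split into 3 mice at or above the highest WT mouse (pairs 1, 6 and 7, from 61829 to 70713), 3 within the WT range and 1, of pair 4, far below. Egr1 (ENSMUSG00000038418, chr18:34859823-34864984, forward strand) had 40623, 50920 and 64188 in WT and 24981, 61726 and 81233 in OE/OE. Nr4a1 (ENSMUSG00000023034, chr15:101254269-101274795, forward strand) had 17273, 24928 and 34402 in WT and 6945, 28664 and 37825 in OE/OE. For both genes 6 of the 7 OE/OE mice were above the lowest WT mouse, and pair 4 supplied the exception.

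Ier2 (ENSMUSG00000053560, chr8:84661331-84662852, reverse strand), a short nuclear protein of the early response, had 6201, 6706 and 15043 normalized counts in WT and 5418, 9071 and 14793 in OE/OE. Ier3 (ENSMUSG00000003541, chr17:35821684-35822923, forward strand), an early response protein of stressed and growth factor-treated cells, had 8690, 12004 and 23104 in WT and 7645, 11448 and 30519 in OE/OE. In these genes the high mice of both genotypes came from the same litters, as described below. Dusp1 (ENSMUSG00000024190, chr17:26505590-26562128, reverse strand) had 14797, 15826 and 17123 in WT and 11754, 16360 and 26550 in OE/OE. WT mice were thus nearly level in Dusp1, while the OE/OE mice of pairs 1, 3 and 6 were above all of them and those of pairs 4 and 5 below. Exons of Dusp1 share 11 bases with Ergic1.

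**Figure D1:**
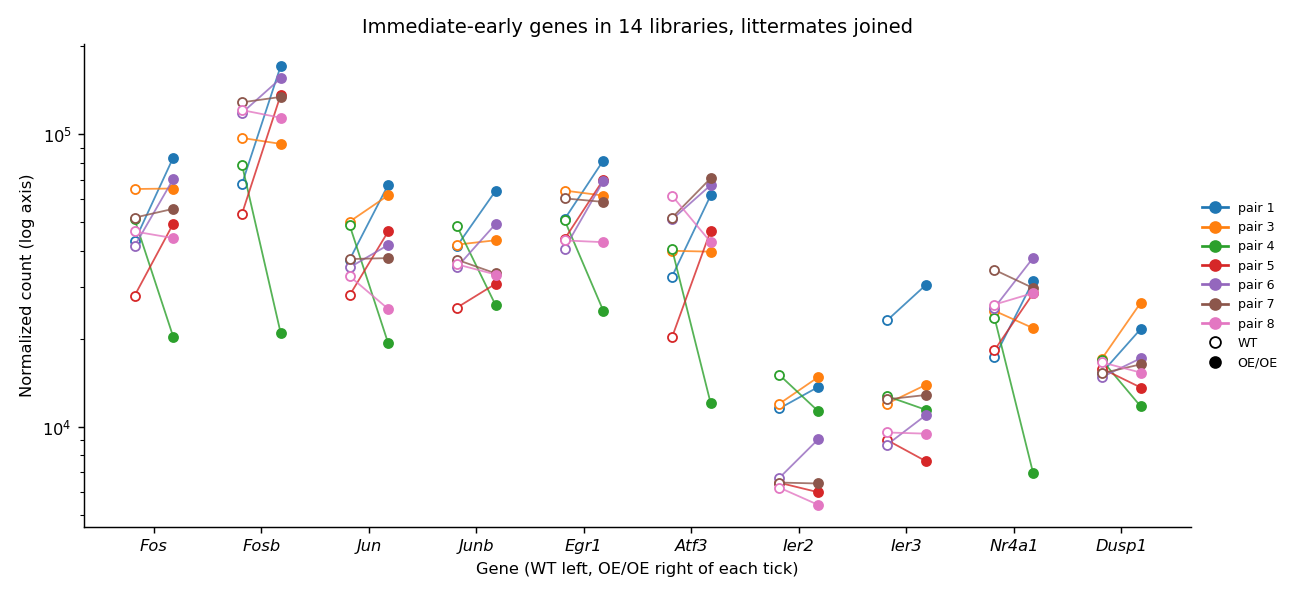
Normalized counts (log axis) of the 10 genes in 14 libraries, WT as open and OE/OE as filled points, with a line joining littermates. In Fos, Fosb, Jun, Egr1, Atf3, Nr4a1 and Dusp1 the lowest point is the OE/OE mouse of pair 4, and in Ier3 both mice of pair 1 lie above all others.

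Levels between genes were compared per kilobase of exon, with all annotated exons of a gene merged. This length was 2352 bases for Fos and 6243 for Fosb, beside mean normalized counts of 51096 and 106315. The order of the genes depends on this choice of length. Fos was highest with 21725 ± 6997 normalized counts per kb (SD, n = 14 libraries), which placed it at rank 46 of the 16124 genes, followed by Atf3 (21187 ± 7853), Fosb (17030 ± 6555), Junb (16957 ± 4464), Jun (12759 ± 4194), Egr1 (12151 ± 3287), Ier3 (11644 ± 5509), Nr4a1 (7234 ± 2219), Ier2 (6153 ± 2348) and Dusp1 (5053 ± 1078, rank 285). Neighbours in this order were mostly not separated. Fos was above Atf3 in 7 of 14 libraries, Fosb above Junb in 7, Jun above Egr1 in 8, Nr4a1 above Ier2 in 8 and Ier2 above Dusp1 in 7. The steps that held in most libraries were Atf3 above Fosb (13 of 14), Junb above Jun (12), Ier3 above Nr4a1 (12) and Egr1 above Ier3 (11), and only for Atf3 over Fosb and Junb over Jun did the mean log2 ratio per kb (0.34 and 0.44) exceed its SD over libraries (0.23 and 0.30).

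Whether Usp22 overexpression moved the immediate-early genes was asked within litters. None of the genes passed the test: 0 of 10 had an unadjusted p of 0.05 or less, the threshold the study used, in limma's test of log2(normalized count + 1) blocked by littermate pair. Over all genes 3.81% passed (614 of 16124), 315 higher and 299 lower in OE/OE. Also 0 of the 10 passed with edgeR's quasi-likelihood test or with DESeq2 on the recovered fragments. The fitted log2 fold changes lay between 0.01 (Nr4a1) and 0.18 (Fos), with a median of 0.08 beside -0.0015 over all genes. All 10 were above 0, as were 7996 of the 16124 genes. Limma's unadjusted p was 0.396 to 0.984 and the adjusted p was 0.9997 for each gene. Exact sign flips of the 7 pairs, two-sided and with a smallest possible p of 0.0156, gave 0.391 to 1.0.

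The intervals were wide for the transcription factors. The log2 fold change of Fos was 0.18 with an SE of 0.25 and a 95% interval of -0.39 to 0.74. That of Fosb was 0.15 with an SE of 0.35, and its interval of -0.63 to 0.94 spans a fold of 0.647 to 1.91. For Atf3 the estimate was 0.10 (95% interval -0.60 to 0.80), for Nr4a1 0.01 (-0.61 to 0.63), for Egr1 0.14 (-0.34 to 0.61), for Jun 0.06 (-0.47 to 0.60) and for Junb 0.04 (-0.35 to 0.43). The intervals were narrower for the other 3 genes. Ier3 had a log2 fold change of 0.08 (-0.13 to 0.30), Ier2 of 0.04 (-0.21 to 0.28) and Dusp1 of 0.08 (-0.23 to 0.39).

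Littermates differed strongly in most of these genes in some pairs and little in others, and the direction was not the same in every pair. In pair 1 all 10 genes were higher in the OE/OE mouse, with a median log2 ratio of 0.76, and in pair 6 all 10 were again higher (median 0.41). In pair 4 all 10 were lower, with a median of -1.18 and values from -1.91 (Fosb) to -0.15 (Ier3). In pair 5 the 7 transcription factors were higher and Ier2, Ier3 and Dusp1 lower (median over the 10 genes 0.66). Pairs 3 and 7 were split, with 6 genes higher and 4 lower in each and medians of 0.03, and in pair 8 Nr4a1 alone was higher (median -0.10). The median over all genes stayed between -0.02 and 0.04 in every pair.

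**Figure D2:**
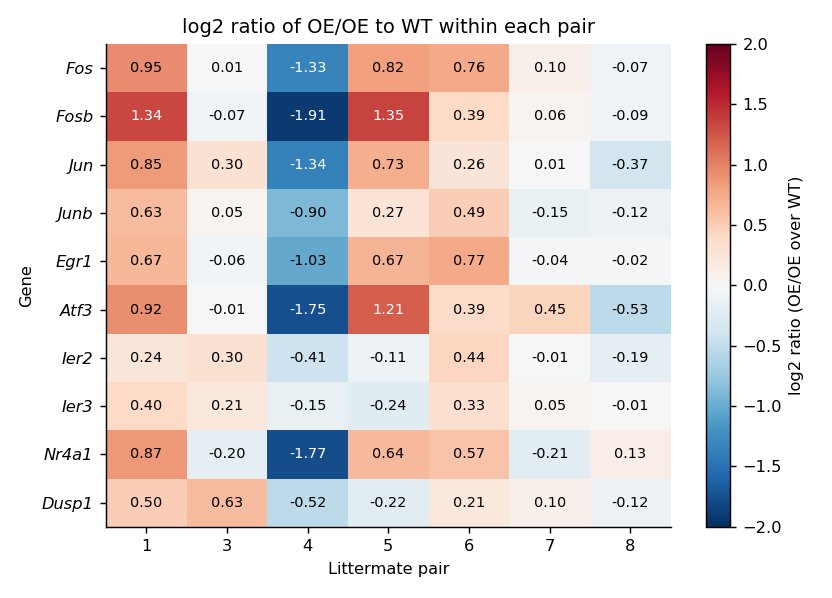
The log2 ratio of OE/OE to WT for each of the 10 genes (y axis) in each littermate pair (x axis), with the colour scale in log2 units and the value printed in each cell. Pair 4 is negative throughout, down to -1.91 in Fosb, whereas pairs 1 and 6 are positive throughout.

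The ratios within pairs were described for a group of 7, the sequence-specific transcription factors (Fos, Fosb, Jun, Junb, Egr1, Atf3 and Nr4a1), and a group of 3, the others (Ier2, Ier3 and Dusp1). These groups were drawn after the values were seen and were given no test. Among the 7, Pearson's r of the pair ratios was 0.87 to 0.99 over the 21 pairs of genes (Spearman's rho 0.54 to 0.96, n = 7 littermate pairs), and among the 3 it was 0.84 to 0.87. Between the groups it was 0.31 to 0.80 (rho 0.14 to 0.68), so the rho values overlapped those among the 7. All genes of a library share its RNA preparation, and pair 4 weighs heavily in these values: without it r was 0.61 to 0.97 among the 7, 0.78 to 0.84 among the 3 and -0.11 to 0.61 between them. Without pairs 1 and 4 the r was 0.50 to 0.98 among the 7, 0.76 to 0.87 among the 3 and -0.60 to 0.60 between them. Over all 7 pairs the SD of the pair ratios was 0.51 (Junb) to 1.10 (Fosb) for the 7 factors. It was 0.24 (Ier3) to 0.41 (Dusp1) for the rest, beside a median of 0.36 over all genes. These ranges did not overlap, but pair 4 weighs in them too, with ratios of -0.90 in Junb and -0.52 in Dusp1. Without pair 4 the separation of Junb from Dusp1 did not hold. Fosb varied more between littermates than 93.4% of all genes, and Ier3 more than 27.3%.

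The spread between litters told the genes apart in another way. Ier2 and Ier3 differed between litters, and the other 8 did not pass the test. The F-test of the 6 pair coefficients in the limma fit gave an adjusted p of 0.00476 for Ier2 and 0.00351 for Ier3, against 0.307 to 0.452 for the rest, where 33.3% of all genes passed an adjusted p under 0.05. Litter held 92.8% of the sum of squares of log2 values in Ier2 and 94.7% in Ier3, but 45.3% to 54.7% in the other 8 genes, close to the 46.2% that litter would hold on average if litters were alike. The median over all genes was 73.9%.

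For Ier2, the 6 mice of litters 1, 3 and 4 had 11320 to 15043 normalized counts and the 8 mice of the other litters 5418 to 9071, with no overlap and both genotypes on each side. For Ier3, the mice of litter 1 had 23104 (WT) and 30519 (OE/OE) normalized counts, and the other 12 mice had 7645 to 13915. Litter 1 therefore stood alone in Ier3 but beside litters 3 and 4 in Ier2. Without pair 1 the litter term passed in 1 of the 10 genes in place of 2. In the transcription factors littermates were further apart. WT Fos was 43030 in litter 1 and 51244 in litter 4, while the OE/OE littermates had 83207 and 20316.

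**Figure D3:**
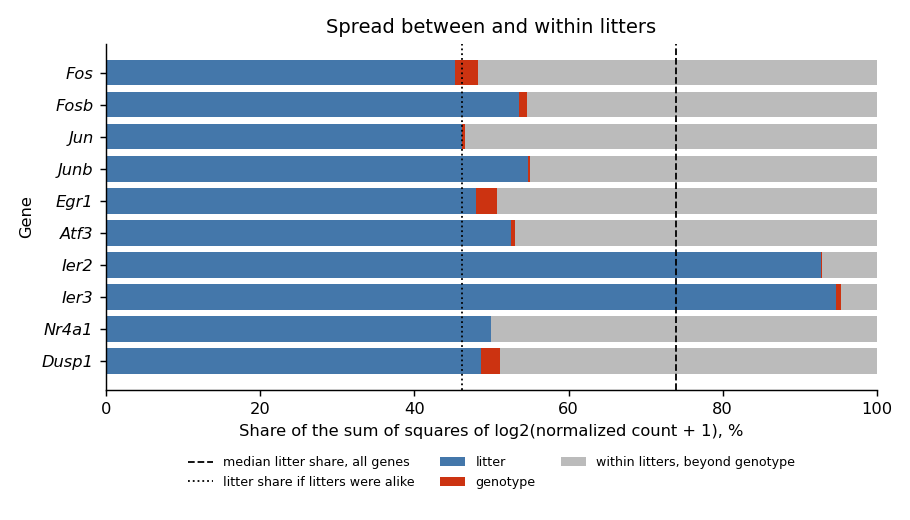
Share (%) of the sum of squares of log2(normalized count + 1) held by litter, by genotype and by the remaining spread within litters for each of the 10 genes. Ier2 and Ier3 reach 92.8% and 94.7% for litter, to the right of the dashed median over all genes (73.9%), and the others end near the dotted 46.2%.

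OE/OE mice were more spread out than WT mice in these genes, as in most genes of the table. The SD of log2 values was larger in OE/OE for 10 of 10 genes, with a median ratio of 1.97, where it was larger for 77.1% of all genes with a median ratio of 1.31. Dusp1 had the highest ratio, 4.84, from an SD of 0.08 in WT and 0.40 in OE/OE. Much of this rested on pair 4. Without that pair, left out after the data were seen, the SD was larger in OE/OE for 6 of the 10 genes (61.4% of all genes), with a median ratio of 1.23 (1.11 over all genes). Without pairs 1 and 4 it was larger for 5 of 10 (60.5% of all genes), with a median ratio of 1.02 (1.11 over all genes). Dusp1 kept a ratio of 4.39 without pair 4. No test of the spread was run.

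Pairs 1 and 4, which had the largest median differences over the 10 genes, also differed in markers of other cell types. Pair 5 had a median log2 ratio of 0.66 over the 10 genes, but its endothelial markers differed by only 0.18 in mean log2 value. The 10 endothelial markers summed to 65935 to 95572 normalized counts in WT and 23864 to 136860 in OE/OE, with both extremes at the OE/OE mice of pairs 4 and 1, the same mice that were lowest of all 14 in 7 of the genes and highest in 6. The difference of their mean log2 values, OE/OE minus WT, came to 0.93 in pair 1 and -1.77 in pair 4, with the other 5 pairs at -0.12 to 0.18. The 11 adipocyte markers (17742 to 40594 in WT, 14752 to 37476 in OE/OE) differed in mean log2 value by 0.58 in pair 1 and -2.18 in pair 4, and were lower in OE/OE in 6 of 7 pairs (mean -0.76, exact sign-flip p = 0.0625, two-sided, n = 7 pairs). The direction depended on the measure, since their summed counts were higher in OE/OE in 3 of 7 pairs. In pairs 5 and 6 the adipocyte markers were at -0.44 and -0.87, while 7 and 10 of the 10 immediate-early genes were higher. The fibroblast markers differed by 0.59 in pair 1 and -0.85 in pair 4 and were lower in 5 of 7 pairs (mean -0.37, exact sign-flip p = 0.125), the macrophage markers by -0.37 and -0.51, and the lymphocyte markers by -2.25 and 0.10. Luminal markers differed by at most 0.17 in any pair. Basal markers differed by -0.55 in pair 1, -0.22 in pair 5 and 0.20 in pair 6, and by -0.05 to 0.09 in the other pairs.

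Over the 14 libraries the mean of the 10 genes, each scaled to mean 0 and SD 1, had a Pearson's r of 0.85 with the endothelial list (Spearman's rho 0.63), 0.51 with the adipocyte list (rho 0.30), 0.36 with the fibroblast list (0.13) and 0.23 with the lymphocyte list (0.50). For the luminal, basal and macrophage lists r was -0.09 to 0.11 and rho -0.06 to 0.11. These are descriptions of libraries that share litters. Without the OE/OE mice of pairs 1 and 4 the r was 0.57 for the endothelial list (rho 0.41), 0.12 for the adipocyte list (0.08), -0.25 for the fibroblast list (-0.21) and 0.28 for the lymphocyte list (0.56). It was then 0.32 for the basal list (0.34), 0.30 for the macrophage list (0.26) and 0.07 for the luminal list (-0.01). The part of other cell types in the levels of the immediate-early genes was not tested.

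**Figure D4:**
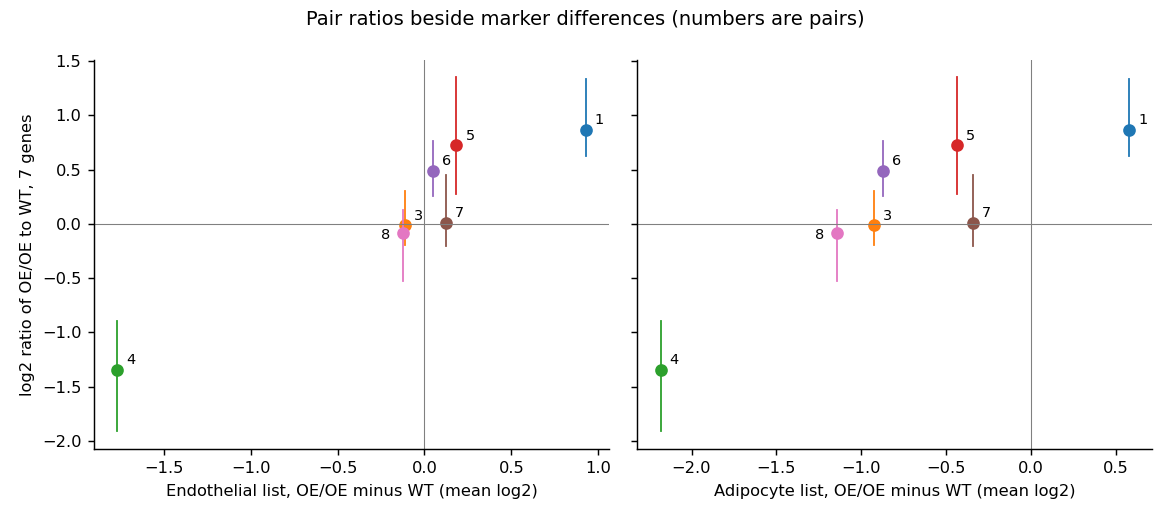
The median log2 ratio of OE/OE to WT over the 7 transcription factors (points, lines from the lowest to the highest gene) against the difference in mean log2 of the endothelial list (left) and the adipocyte list (right), 1 colour and number per littermate pair. Pair 4 is low and pair 1 high on all axes. The other 5 pairs lie between -0.12 and 0.18 on the endothelial axis, although the medians of pairs 5 and 6 are 0.73 and 0.49.

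The result that no gene passed did not hold under every fit. When the score of the adipocyte markers entered as a covariate, 7 of the 10 genes passed, each of them higher in OE/OE, when 17.3% of all genes passed (9.76% higher). These were the 7 transcription factors, with log2 fold changes from 0.42 (Junb) to 1.04 (Fosb), and limma's adjusted p was 0.126 to 0.244. The median over the 10 genes was 0.62 in that fit beside -0.01 over all genes. The adipocyte score was itself lower in OE/OE in 6 of 7 pairs (mean log2 difference -0.76, and -2.18 in pair 4). Genotype and score can therefore not be fully told apart in that fit. With the fibroblast score none passed, and with the endothelial score, added after the data were seen, none passed either (7.74% of all genes did) and the median was 0.13. Without pair 4 only Fos passed, with a log2 fold change of 0.43, an SE of 0.17 and a limma p of 0.0291 (adjusted 0.551; exact sign-flip p = 0.0938 over 6 pairs), while 8.47% of all genes passed. The median over the 10 genes was then 0.30.

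Other genes of the early response were read from the same fit in lists chosen with earlier results known. The 20 other AP-1 and ATF family genes had a median log2 fold change of 0.01. Jund, the JUN member that is less inducible, had the highest level per length in the list (22393 normalized counts per kb) and a log2 fold change of 0.11. Atf4, the effector of the integrated stress response, had 9027 per kb and a log2 fold change of 0.05. The litter share was highest in Creb1 (92.4%) and Atf7 (91.2%).

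Of 22 other early response transcription factors none passed, and the median log2 fold change was 0.09, but 7 were higher without pair 4, where 4.49% of all genes were higher, and 13 with the adipocyte score, where 9.76% were. Klf6 and Klf4, zinc finger factors of early responses, had the highest levels (9292 and 8460 per kb) and log2 fold changes of 0.07 and 0.19. Per1, a clock gene that is also induced early, and Csrnp2 had the largest litter shares (80.6% and 80.1%). Of 25 upstream kinases and factors none passed either, with a median of 0.07. In this list litter shares were large, up to 96.9% in Rps6ka3 and 94.6% in Braf, and Map2k3 and Mapk3, kinases above and at the level of p38 and ERK, had the highest levels (4119 and 1991 per kb) with log2 fold changes of 0.10 and 0.0006.

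The feedback and effector list had 4 of 38 genes lower in OE/OE and none higher, with a median of 0.01, where 1.85% of all genes were lower. These were Cxcl1, a neutrophil chemokine (log2 fold change -0.72, SE 0.24), Il6, the cytokine (-0.60, SE 0.26), Ccl2, a monocyte chemokine (-0.53, SE 0.23), and Ptgs2, the inducible cyclooxygenase (-0.50, SE 0.22). Each was lower in 6 of 7 pairs, with limma p-values of 0.0151 to 0.0483 and an adjusted p of 0.9997. Exact sign flips of the 7 pairs gave p = 0.0312 for Ptgs2 and 0.0469 for Cxcl1, but 0.0781 for Ccl2 and for Il6. Cxcl1, Ccl2 and Ptgs2 also differed between litters (adjusted p of limma's F-test 0.00393, 0.0159 and 0.0329). The 4 calls were 0 without the block or with the paired test of each gene on its own, 1 with median centring or limma without trend, 2 with edgeR and 5 with DESeq2. Without pair 4 the list had 8 genes higher and 2 lower, with the adipocyte score 15 higher and none lower, and with the fibroblast score none in either direction. With the endothelial score, added after the data were seen, it had 4 higher and 6 lower, when 7.74% of all genes passed. Over all genes 8.47% passed without pair 4 (4.49% higher) and 17.3% with the adipocyte score (9.76% higher). With the fibroblast score 462 of 16124 genes passed. Nfkbia and Tnfaip3, inhibitors of NF-kB, did not pass, and litter held 95.4% and 96.4% of their sum of squares, above Ier3 and Ier2. Errfi1, an inhibitor of EGF receptors, had 11050 per kb and a log2 fold change of -0.08.

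Heat shock genes, which are also known to respond to dissociation, had 5 of 15 members higher in OE/OE, where 1.95% of all genes were higher. All 15 log2 fold changes were above 0 with a median of 0.25, while 7996 of all 16124 genes were above 0. Hsph1, an HSP110 cochaperone, was higher in 7 of 7 pairs, with 3003 to 8066 normalized counts in WT and 5744 to 10240 in OE/OE. Its log2 fold change was 0.52 with an SE of 0.16 (limma p = 0.00886, adjusted 0.9997, exact sign-flip p = 0.0156). The inducible HSP70 gene Hspa1b (0.54), the small heat shock gene Hspb1 (0.44), the HSP40 gene Dnaja1 (0.36) and the inducible HSP90 gene Hsp90aa1 (0.32) were each higher in 5 of 7 pairs, and their exact sign-flip p was 0.109, 0.0781, 0.0625 and 0.0625. Hsp90ab1, the most abundant of the list at 35552 per kb, did not pass in limma (0.24), though it was higher in 6 of 7 pairs (exact sign-flip p = 0.0312), nor did the mitochondrial chaperonins Hspd1 (0.25) and Hspe1 (0.10, litter share 88.7%). The number that passed was 2 to 9 with 1 pair left out (9 without pair 4), 0 with the fibroblast score and 10 with the adipocyte or the endothelial score. Over all genes 8.47% passed without pair 4, 17.3% with the adipocyte score and 7.74% with the endothelial score. With the fibroblast score 462 of 16124 genes passed. The litter share of this list was low, with a median of 44.8%.

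**Figure D5:**
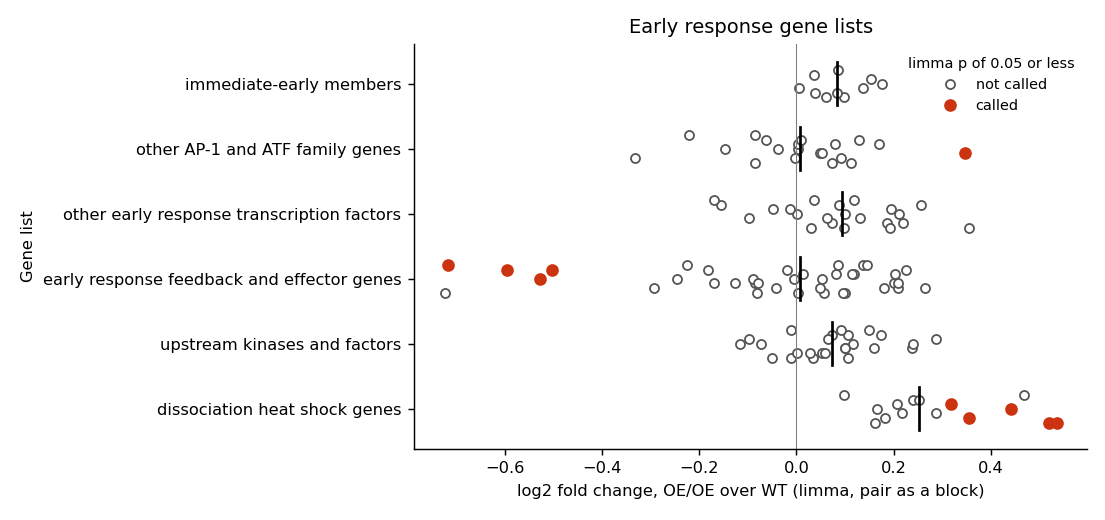
Log2 fold change of OE/OE over WT (limma with the pair as a block) for each gene of the immediate-early set and the 5 other lists, with filled points for an unadjusted p of 0.05 or less and a bar at each median. The heat shock list lies wholly above 0 with 5 filled points, the feedback list has 4 filled points below -0.50, and the immediate-early genes sit between 0.01 and 0.18.

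Outside the 10 genes, those whose pattern over the 14 libraries was most like their scaled mean were sought among 13230 genes with a mean of at least 50 normalized counts. Ppp1r15a, which encodes the phosphatase subunit GADD34, was the closest with a Pearson's r of 0.99, and ranged from 6093 to 31870 normalized counts. Aplp2 (0.97), a relative of the amyloid precursor protein, and the early response genes Csrnp1 (0.95), Dusp2 (0.94) and Zfp36 (0.94), the last a protein that speeds the decay of AU-rich mRNAs, followed. Sox18 (0.94), Hhex (0.93) and Plvap (0.93), genes known from endothelium, came next, with Tnfsf9 (0.93) and Gpm6a (0.93). Without the OE/OE mice of pairs 1 and 4 these values were 0.96 for Ppp1r15a, 0.93 for Aplp2 and 0.79 to 0.86 for the other 8. The most opposite genes were Lrrc4 (-0.94), Tfdp1 (-0.93), Clip2 (-0.92), Mlst8 (-0.91) and Ammecr1 (-0.90). Without the same mice their values were -0.82, -0.80, -0.87, -0.68 and -0.70. Within the set, r with the mean was highest for Fos (0.97) and lowest for Ier2 (0.38), the mean including each gene itself.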

How the data were processed

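MECs of 7 WT and 7 Usp22 OE/OE littermates were profiled by polyA RNA-seq. The authors mapped read pairs to mm10 with TopHat2 2.0.10, counted fragments per GENCODE M21 gene with HTSeq 0.6.0, dropped genes that did not reach 10 fragments in 7 or more samples and deposited a signal, counts divided by DESeq 1.18.0 size factors. All values (100% in every library, within 0.001 fragments) were whole multiples of 1 fragment, so fragments were recovered. Replicates were not pooled. The pairing came from the pair numbers of the labels and the littermate matching of the study's methods. Across genes, the deviations of littermates from their genotype means had an r of 0.171 to 0.748 in the 7 pairs (median 0.522). For mice of different pairs r was -0.538 to 0.634 (median -0.151, 42 combinations), so the ranges overlapped.

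From these values, log2(normalized count + 1) was fitted with limma 3.58.1 (R 4.3.3, eBayes with trend), with the pair as a block, over all 16124 genes. Calls used an unadjusted p of 0.05 or less, as in the study, with Benjamini-Hochberg adjustment beside it. On the recovered fragments edgeR 4.0.16 called 597 genes and DESeq2 1.42.0 called 626, against 614 in limma. Litters were compared by the F-test of the pair coefficients in the same fit, and single genes by exact sign flips of 7 pairs (128 patterns). The scripts were tested on simulated data.

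The members, the lists, the tests and the rule for named genes were chosen with earlier results of these data known. The rule names all members, from each other list the genes that passed, the 2 with the largest litter share and the 2 highest per length, and the 10 genes most like and 5 most unlike the members' mean. The result of 1 gene named by the rule is not reported here, although it is included in the counts. Alternatives were pseudocounts of 0.1 and 10, only genes averaging at least 50 normalized counts, limma with its trend off, libraries centred on their medians or quantile-normalized, no block, other tests, covariates from marker scores and leaving out single pairs.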

Additional observations from a re-analysis of the deposited data

Results flagged for a closer look

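Each gene and the share of the 10 genes in all fragments were screened in each genotype for a mouse far from the other 6, by its gap to the nearest mouse as a share of the whole range of log2 values (Dixon's test at its critical value for 7 mice). Of 22 groups screened 4 passed, where chance alone gives about 1.1. The groups share the same mice and many of the genes vary together, so the 4 are not independent findings. In 3 of them the mouse was the OE/OE mouse of pair 4, which was the lowest in Fosb (gap 0.708, log2 value 14.35 against 16.50 for the nearest mouse), in Atf3 (0.674, 13.56 against 15.28) and in Nr4a1 (0.673, 12.76 against 14.41). The endothelial and adipocyte markers of that mouse were also below those of its littermate, by the values given above, and their part in these levels was not tested. The other was the WT mouse of pair 1, the highest in Ier3 (gap 0.609, 14.50 against 13.64), whose OE/OE littermate was the highest OE/OE mouse as well.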

How the results depend on the processing

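The number of the 10 genes that passed stayed at 0 in 18 of 20 alternatives. It was 7 when the adipocyte score was a covariate and 0 to 1 with 1 pair left out (Fos without pair 4). No exact test of a single gene passed with any pair left out, where the smallest possible p was 0.03125. Over all genes 614 passed, but 182 without the littermate pair as a block, 2785 with the adipocyte score, 1248 with the endothelial score (chosen after seeing the data) and 381 to 1366 with 1 pair left out (1366 without pair 4, 1196 without pair 1, 381 without pair 6). The genes that passed after adjustment numbered 2 in limma and edgeR, 19 in DESeq2 and 0 in the paired test of each gene on its own. Median centring gave 386 higher and 245 lower (61.2% higher) against 315 and 299 (51.3%). The numbers of the replicates mark littermates, so the block was kept as the main design. Without the block none of the 10 genes passed either.

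Of the 119 genes in the other early response lists 10 passed. The number was 5 without the block, 46 with the adipocyte score and 2 with the fibroblast score. It was 28 with the endothelial score and 6 with the paired test of each gene on its own. With 1 pair left out it was 3 to 31 (31 without pair 4). The share over all genes moved too. It was 3.81% in the main fit, 17.3% with the adipocyte score, 7.74% with the endothelial score and 8.47% without pair 4. The litter term passed in 2 of the 10 genes, in 3 with the adipocyte or endothelial score and in 1 to 2 with 1 pair left out (1 without pair 1). The median log2 fold change of the 10 genes was 0.001 to 0.62 across alternatives and -0.02 to 0.30 with 1 pair left out. Under quantile normalization 5 genes turned below 0, Fosb and Ier2 at -0.018, Jun at -0.021, Junb at -0.030 and Nr4a1 at -0.042. With 1 pair left out the lowest and highest log2 fold changes were -0.046 and 0.50 for Fosb, -0.071 and 0.30 for Jun, -0.060 and 0.19 for Junb, -0.088 and 0.41 for Atf3, -0.030 and 0.11 for Ier2, -0.14 and 0.30 for Nr4a1 and -0.0075 and 0.19 for Dusp1. Fos, Egr1 and Ier3 stayed above 0. The cause of these shifts was not tested. Depth did not limit these genes, with at least 3998 fragments behind each value, and 7 pairs limit the precision.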
